A study of Oryctolagus cuniculus with 20 samples.

Results

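The genes described are 38 zinc finger genes of the rabbit tricuspid valve, out of 23669 genes counted. They were chosen by name from the study's list of genes that differed between treated and non-treated valves: every symbol beginning with ZNF, ZBTB, ZFP, ZSCAN, ZKSCAN, ZEB, KLF or EGR whose identifier is present in the count table. The genes were therefore selected on the comparison of treated with non-treated valves, and their differences from non-treated valves, including which genes pass the threshold of a test of all genes, are given as a description and support nothing. By name, 27 were ZNF genes, 3 ZBTB, 2 KLF, 2 ZFP, 2 ZSCAN, 1 ZKSCAN and 1 ZEB, and no EGR gene was found. A further 12 zinc finger symbols of that list carry identifiers that do not occur in the count table, among them ZEB2 and ZFP36L2, and were not analysed here.

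RNA was sequenced from whole tricuspid valves of female New Zealand white rabbits, aged 8 weeks at the start and treated through their drinking water over 16 weeks, with 5 valves per group from separate rabbits. Non-treated rabbits drank water alone. The treated groups received serotonin at 80 mg/kg/day, pergolide at 0.5 mg/kg/day or dexfenfluramine at 20 mg/kg/day, and another dose of dexfenfluramine also appears in the study's text. Pergolide, an ergot derivative, and dexfenfluramine, an appetite suppressant, are drugs linked to valvular heart disease, and the study calls both serotonergic.

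A zinc finger is a small protein loop held in shape by a zinc ion, and repeats of the C2H2 type read DNA bases in turn. Most zinc finger proteins of this type are transcription factors, and the families differ in the domain that accompanies the fingers. BTB domains (ZBTB) and the KRAB domains of many ZNF proteins recruit co-repressors, SCAN domains (ZSCAN, ZKSCAN) mediate dimerization, and KLF proteins bind GC-rich promoters through a cluster of fingers at their end. ZEB factors drive the transition from epithelial or endothelial to mesenchymal cells, a step in the formation of heart valves. The name "zinc finger transcription factor" does not cover all of the genes. ZNF207 (BuGZ) is known as a microtubule and kinetochore protein, ZNF106 and ZNF326 as RNA-binding or splicing-associated proteins, ZFP91 as an E3 ubiquitin ligase, and ZFPM2 (FOG2) as a cofactor of GATA factors.

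Levels are given as CPM, the reads of a gene per 1000000 reads of its valve, scaled between valves by edgeR's TMM method and not divided by gene length, so that the levels of different genes are not compared. The reads assigned to genes numbered 3247091 to 5921025 per valve. One gene without a symbol, ENSOCUG00000029084, took on average 40.7% of the counts of non-treated valves and 29.1% after dexfenfluramine. Whole valves hold several cell types, and fewer cells of a type cannot be told apart from less RNA per cell. Markers of valvular interstitial cells (6 of 8 with a symbol, including COL1A2 and VIM) were present in every valve. Their summed level was 3661 to 5706 CPM in non-treated valves, 4323 to 5846 CPM after serotonin, 5460 to 7981 CPM after pergolide and 5947 to 9155 CPM after dexfenfluramine, and 5 of the 6 were called higher with pergolide and 4 with dexfenfluramine, where 12.1% and 13.5% of all genes were. A marker has a symbol only if it is on the study's list of differing genes, so the calls of all marker lists were selected for and are a description. Cardiomyocyte markers (7 of 12 with a symbol, including TTN and MYH7) were also present in every valve. They summed to 48417 to 147874 CPM in non-treated valves, 52287 to 101597 CPM after serotonin, 46750 to 89762 CPM after pergolide and 12168 to 69415 CPM after dexfenfluramine. TNNT2 was called lower with both drugs, and MYH7 and PLN with dexfenfluramine alone. Of all genes, 12.7% were called lower with pergolide and 15.4% with dexfenfluramine. Adipocyte markers (4 of 7 with a symbol, LEP at 0 in 1 valve) summed to 24.1 to 75.6 CPM in non-treated valves, 32.0 to 149 CPM after serotonin, 62.3 to 193 CPM after pergolide and 3.78 to 109.6 CPM after dexfenfluramine, and all 4 were called higher with pergolide, where 12.1% of all genes were. The endothelial marker PECAM1 (1 of 5 with a symbol) was at 99.7 to 261 CPM in non-treated valves, 193 to 281 CPM after serotonin, 87.4 to 165 CPM after pergolide, where it was called lower, and 135 to 211 CPM after dexfenfluramine. Smooth muscle markers (2 of 4 with a symbol) summed to 20.0 to 67.8 CPM in non-treated valves and 29.5 to 75.3 CPM after serotonin. The sum was 26.8 to 49.6 CPM after pergolide and 14.0 to 31.4 CPM after dexfenfluramine. Of the 2, TAGLN was called higher with both drugs and MYH11 lower with dexfenfluramine. TAGLN lay at only 0.80 to 7.02 CPM over all valves. Macrophage and erythroid markers had no symbol. The part of these cell types in the zinc finger results was not tested.

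Of the 38 genes, 37 passed the filter on low counts, and ZSCAN12 did not. The mean level in non-treated valves was 100 CPM or more for 6 of the 37 genes, between 10 and 100 CPM for 25, and under 10 CPM for 6. The 6 genes with 100 CPM or more were ZNF106 (745 CPM), ZNF532 (282 CPM), ZFP91 (271 CPM), ZNF292 (186 CPM), ZNF462 (147 CPM) and ZNF326 (142 CPM). They are the genes with the most reads and the least counting error. ZNF311, ZNF76, ZNF483, ZNF18, ZNF396 and ZKSCAN1 lay under 10 CPM, down to 1.84 CPM for ZKSCAN1, and rest on few reads. The median spread between valves of a group, as edgeR's biological coefficient of variation, was 0.109 for the 37 genes and 0.154 for all 8683 genes tested. The 2 sets are not alike in level. Their median levels in non-treated valves were 30.1 and 17.9 CPM, and 3087 of all genes lay under 10 CPM. The difference in spread was not tested.

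On the TMM scale more of the genes were lower than higher with the drugs, which turns when valves are scaled by total counts alone. With pergolide and with dexfenfluramine alike, 24 of the 37 genes had lower levels and 10 had higher levels than non-treated valves, and 3 (ZNF76, ZNF462 and ZEB1) had opposite signs. Of all genes tested, 52.0% were higher with pergolide and 52.8% with dexfenfluramine. The median log2 fold change was -0.30 for pergolide and -0.20 for dexfenfluramine, beside 0.023 and 0.032 for all genes tested. With serotonin it was 0.038, beside 0.015 for all genes, and 22 genes were higher and 15 lower, where 52.5% of all genes were higher. All fold changes lay between -0.68 (ZNF483 with pergolide) and 1.19 (ZKSCAN1 with dexfenfluramine). Each comparison uses the same 5 non-treated valves, so the values of the treatments are not independent of one another.

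**Figure D1:**
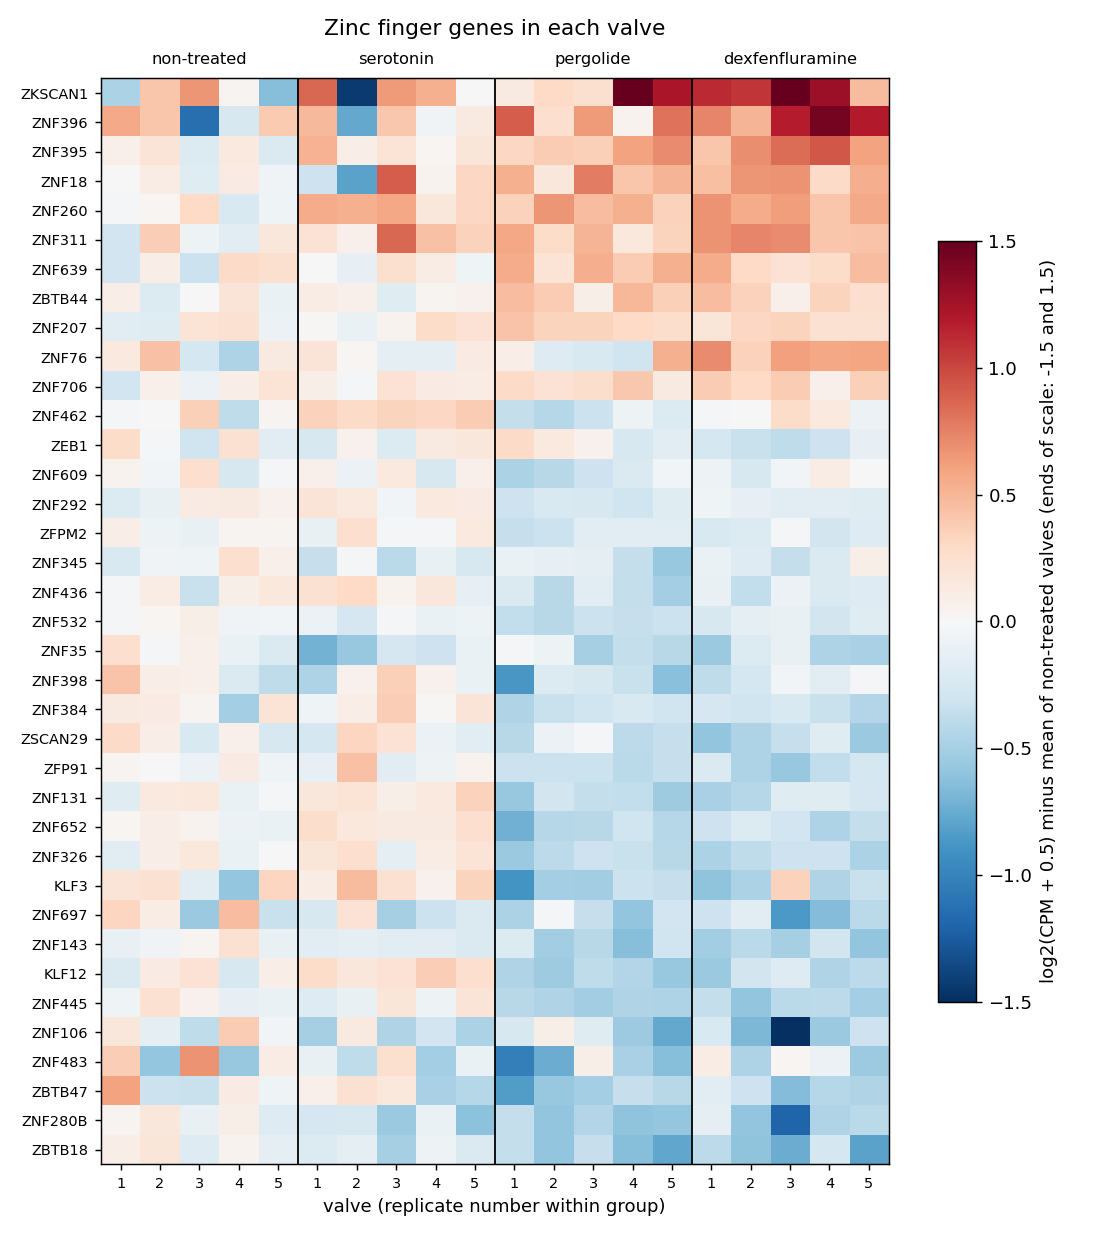
Level of 37 zinc finger genes (rows, ordered by the mean log2 fold change of both drugs) in each of 20 valves (columns, by group and replicate), as log2(CPM + 0.5) with TMM scaling, minus the mean of the 5 non-treated valves; red is higher and blue is lower. The lower 24 rows are mostly blue in the pergolide and dexfenfluramine valves, while serotonin valves show both colours. With total counts alone 27 (pergolide) and 37 (dexfenfluramine) of the 37 genes are higher, where 85.5% and 91.3% of all genes tested are.

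In edgeR's quasi-likelihood test of all 8683 genes, a gene was called when its Benjamini-Hochberg adjusted p was under 0.05. With pergolide 23 of the 37 genes were called, 5 higher and 18 lower, where 12.1% of all genes tested were called higher and 12.7% lower. With dexfenfluramine 23 were also called, 10 higher and 13 lower, where 13.5% of all genes were called higher and 15.4% lower. Leaving out 1 valve gave 5 to 8 higher and 10 to 15 lower for dexfenfluramine. The 5 came without dexfenfluramine replicate 1, where 1042 of 8781 genes were called higher. With serotonin none was called, where 1.04% of all genes were called higher and 0.15% lower. At an unadjusted p under 0.05 there were 7 of the 37 genes and 15.8% of all genes with serotonin, and DESeq2 and limma-voom also called 0 of the 37. Single valves moved the number of all genes called for serotonin, which was 103 with every valve. Leaving out non-treated replicates 1 to 5 in turn gave 152, 0, 257, 3 and 0 genes, and leaving out serotonin replicates 1 to 5 gave 0, 4, 131, 21 and 50. With the replicate number as a block it was 1. Since the genes were listed for these very differences, the counts are not read against the shares. A total of 16 genes were called for both drugs, 7 for pergolide alone, 7 for dexfenfluramine alone and 7 for neither. Of all genes tested, 19.6% were called for both, 5.27% for pergolide alone, 9.34% for dexfenfluramine alone and 65.8% for neither. Without dexfenfluramine replicate 3, the valve with the least cardiomyocyte marker RNA, 21 genes were called for dexfenfluramine, 7 higher and 14 lower, where 11.3% of all genes were called higher and 13.1% lower.

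The direction of these differences is relative to the bulk of genes. When valves were scaled by their total counts without TMM, a choice added after the data were seen, the median of all genes moved to 0.46 for pergolide and 0.70 for dexfenfluramine. The genes called were then 10 higher and 0 lower for pergolide, where 26.4% of all genes tested were called higher and 1.00% lower. For dexfenfluramine they were 18 higher and 0 lower, where 57.4% of all genes were called higher and 1.36% lower. On that scale 27 of the 37 genes were higher with pergolide and 37 with dexfenfluramine, where 85.5% and 91.3% of all genes tested were higher. In the plot of the 2 scalings the 24 genes lie below the median gene and the 10 genes above it on both scales. With DESeq2's size factors, or after removing the most abundant gene, the number of positive and negative fold changes stayed at 11 and 26 for pergolide and at 12 and 25 for dexfenfluramine. In limma-voom with 4 surrogate variables of svaseq, the kind of correction that the study used, 10 genes were called for pergolide, 0 higher and 10 lower, where 6.25% of all genes were called higher and 7.06% lower. For dexfenfluramine 9 were called, 2 higher and 7 lower, where 5.21% of all genes were called higher and 6.16% lower.

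**Figure D2:**
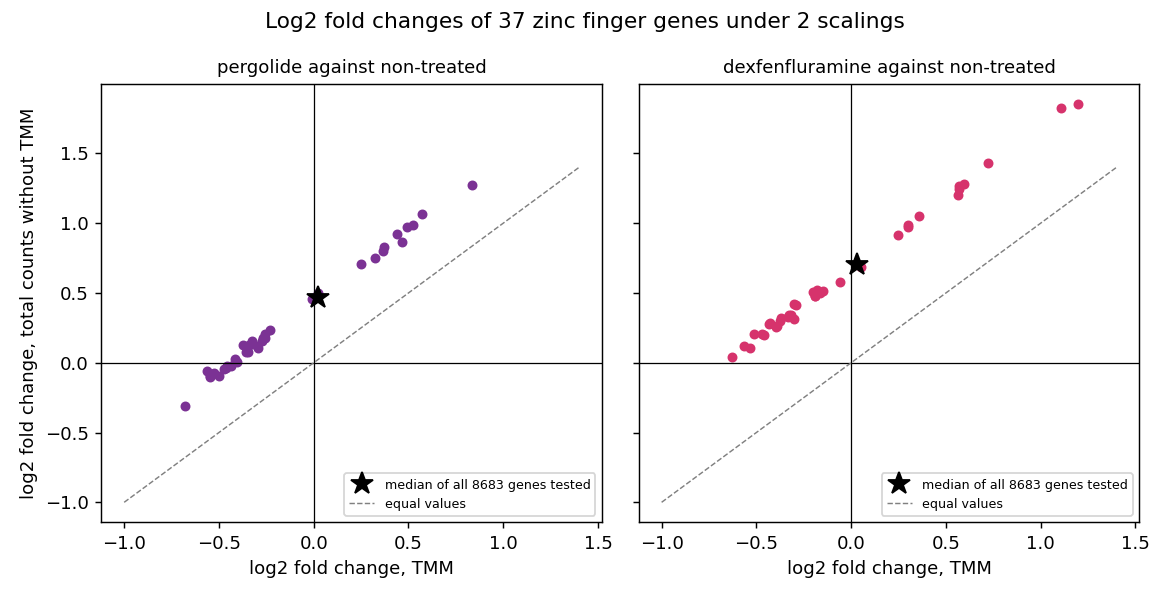
Log2 fold change of 37 zinc finger genes (points) against non-treated valves with TMM scaling (horizontal) and with total counts without TMM (vertical), for pergolide and dexfenfluramine; the star is the median of all 8683 genes tested and the dashed line marks equal values. All points lie above the dashed line, by 0.37 to 0.51 for pergolide and 0.62 to 0.72 for dexfenfluramine, where the median gene moved by 0.44 and 0.67.

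Among the genes that were higher with the drugs, 5 were called for both: ZNF260, ZNF395, ZNF639, ZBTB44 and ZNF207. With svaseq surrogate variables none of the 5 was called higher for pergolide, and 2 zinc finger genes were called higher for dexfenfluramine. In that fit 543 and 452 of all 8683 genes were called higher. ZNF260 (ENSOCUG00000029144), known from cardiac muscle cells as an effector of adrenergic signalling that acts with GATA4, had higher means with every treatment. It was picked out because the study lists it for all treatments, so its differences were selected for and are a description. Its levels were 18.8, 19.5, 23.7, 16.2 and 18.2 CPM in non-treated valves and 28.4, 27.9, 28.9, 21.5 and 23.9 CPM after serotonin. They were 24.5, 30.6, 26.6, 27.8 and 24.5 CPM after pergolide and 30.8, 28.4, 29.7, 25.7 and 28.7 CPM after dexfenfluramine. All pergolide and dexfenfluramine valves lay above all non-treated valves, while 1 serotonin valve lay below the highest non-treated valve. Serotonin gave a log2 fold change (± SE) of 0.43 ± 0.11, pergolide of 0.47 ± 0.11 and dexfenfluramine of 0.56 ± 0.11. Without non-treated replicate 3, the highest of the non-treated valves, ZNF260 was called for serotonin at 0.52 ± 0.11.

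ZNF395 (ENSOCUG00000014174), a factor known for its induction by low oxygen, had levels of 22.4, 24.4, 18.4, 23.5 and 18.2 CPM in non-treated valves and 30.8, 22.8, 24.5, 21.7 and 24.2 CPM after serotonin. After pergolide it stood at 26.4, 27.8, 27.4, 32.5 and 35 CPM and after dexfenfluramine at 28.6, 34.6, 38.2, 41 and 32.5 CPM. The drug valves lay above the non-treated valves without overlap, and the serotonin valves overlapped with them. The log2 fold change was 0.49 ± 0.13 for pergolide, 0.72 ± 0.12 for dexfenfluramine and 0.23 ± 0.13 for serotonin.

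ZBTB44 (ENSOCUG00000010058), a BTB zinc finger gene, was higher with the drugs and near the non-treated level with serotonin. It had 44.4, 35.8, 41.3, 47.4 and 38.4 CPM in non-treated valves, 44.7, 43.4, 36.2, 42.6 and 43.3 CPM after serotonin, 57.1, 54, 43.8, 58.7 and 53.2 CPM after pergolide and 57.2, 52.6, 43.4, 52.2 and 49.1 CPM after dexfenfluramine. In each drug group 4 of 5 valves exceeded the highest non-treated valve. The log2 fold changes were 0.024 ± 0.10, 0.37 ± 0.10 and 0.30 ± 0.10 in the same order of treatments. It was the only ZBTB gene of the 3 that was higher.

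ZNF639 and ZNF207 had the same direction. ZNF639, a transcriptional regulator also called ZASC1, had a mean of 14.4 ± 2.88 CPM (SD, n = 5 here and below) in non-treated valves, 19.6 ± 2.02 CPM after pergolide and 18.5 ± 1.88 CPM after dexfenfluramine. ZNF207, the mitotic spindle protein, had 54.1 ± 7.79, 67.8 ± 2.99 and 64.3 ± 2.84 CPM in those groups. With serotonin the log2 fold changes of ZNF639 and ZNF207 were 0.018 ± 0.14 and 0.087 ± 0.092.

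ZKSCAN1, ZNF396, ZNF311 and ZNF706 were higher with both drugs and called for dexfenfluramine alone. ZKSCAN1 (ENSOCUG00000015433), a SCAN and KRAB gene, had the highest fold change of all members and the fewest reads of those tested, 1 to 35 per valve. Its levels were 1.08, 2.44, 2.98, 1.76 and 0.92 CPM in non-treated valves, 3.49, 0.316, 2.92, 2.68 and 1.69 CPM after serotonin, 1.92, 2.22, 2.11, 6.16 and 4.63 CPM after pergolide and 4.3, 4.14, 6.3, 4.85 and 2.56 CPM after dexfenfluramine. The groups overlapped, and 2 of 5 pergolide valves stood above the others. The log2 fold change was 1.19 ± 0.42 for dexfenfluramine and 0.83 ± 0.43 for pergolide, and with the surrogate variables it was -0.22 and -0.23, with the opposite sign.

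ZNF396 (ENSOCUG00000016039), which carries a SCAN domain in other mammals, rested on 4 to 41 reads per valve. It had 3.97, 3.52, 0.878, 2.06 and 3.45 CPM in non-treated valves, 3.73, 1.27, 3.51, 2.41 and 2.81 CPM after serotonin, 5.17, 3.08, 4.21, 2.64 and 4.8 CPM after pergolide and 4.52, 3.79, 6.3, 7.64 and 6.41 CPM after dexfenfluramine. The log2 fold change was 1.10 ± 0.33 for dexfenfluramine and 0.57 ± 0.34 for pergolide, and in each comparison the valves overlapped with non-treated valves. ZNF18 (ENSOCUG00000010095) had 6.49, 7.04, 5.62, 7.06 and 6.21 CPM in non-treated valves, 5.13, 3.48, 12.6, 6.7 and 8.15 CPM after serotonin, 9.58, 7.35, 11.4, 8.79 and 9.43 CPM after pergolide and 9.04, 10.5, 10.6, 8.01 and 9.62 CPM after dexfenfluramine. It was called for neither drug, although all drug valves lay above all non-treated valves, and its serotonin valves had the widest spread. Its log2 fold changes were 0.52 ± 0.22 for pergolide and 0.57 ± 0.22 for dexfenfluramine. ZNF311 had a mean of 9.07 ± 1.8 CPM in non-treated valves and 13.8 ± 1.53 CPM after dexfenfluramine without overlap, and 12.1 ± 2.76 CPM after serotonin and 11.8 ± 1.45 CPM after pergolide. ZNF706, which encodes a small zinc finger protein, had 23.2 ± 3.09 CPM in non-treated valves and 28.7 ± 2.48 CPM after dexfenfluramine.

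**Figure D3:**
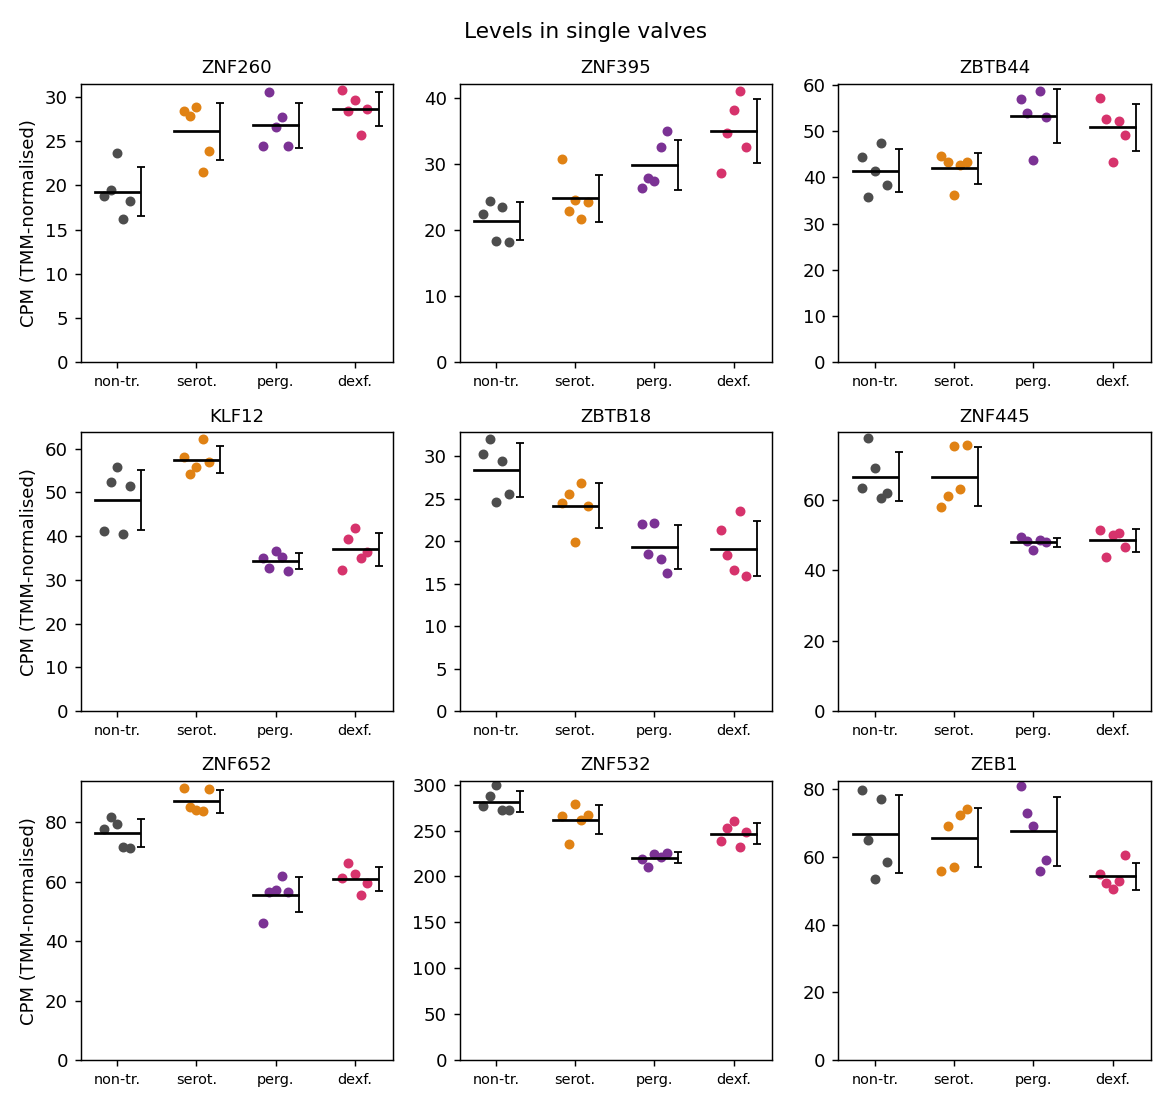
CPM of 9 genes in every valve, by group (points, valves; horizontal line, group mean; error bar, SD, n = 5), on axes that start at 0. ZNF260, ZNF395 and ZBTB44 are higher in the drug groups, the next 5 genes are lower on this TMM scale, and ZEB1 has its lowest mean in dexfenfluramine valves.

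The genes lower with both drugs on the TMM scale included most of the families. Of these 24 genes, 11 were called for both drugs: KLF12, ZBTB18, ZFP91, ZNF131, ZNF143, ZNF280B, ZNF326, ZNF384, ZNF445, ZNF532 and ZNF652. Their log2 fold changes lay between -0.55 and -0.35 for pergolide and between -0.56 and -0.19 for dexfenfluramine. With svaseq surrogate variables 10 zinc finger genes were called lower for pergolide and 7 for dexfenfluramine, so some of these calls ended. In that fit 613 and 535 of all 8683 genes were called lower. The Krüppel-like factors KLF12 and KLF3, both known as repressors that recruit CtBP, had higher means with serotonin and lower means with the drugs. KLF12 (ENSOCUG00000004244) had 41.1, 52.3, 55.8, 40.6 and 51.5 CPM in non-treated valves and 58.2, 54.1, 55.8, 62.2 and 57 CPM after serotonin. After pergolide it had 34.9, 32.8, 36.5, 35.2 and 32 CPM and after dexfenfluramine 32.3, 39.3, 41.8, 35 and 36.4 CPM. All pergolide valves lay below all non-treated valves, and 1 dexfenfluramine valve reached the range of the non-treated valves. On the log2 scale KLF12 differed from non-treated valves by -0.50 ± 0.094 with pergolide, -0.39 ± 0.094 with dexfenfluramine and 0.25 ± 0.093 with serotonin.

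KLF3 (ENSOCUG00000003698) had 33.5, 34.4, 26.3, 19.4 and 36.8 CPM in non-treated valves, 31.7, 40.8, 34.5, 30.8 and 37.1 CPM after serotonin, 15.5, 20.5, 20.2, 23.4 and 22.9 CPM after pergolide and 19.1, 20.9, 37.3, 21.4 and 23.2 CPM after dexfenfluramine. Its non-treated valves spread widely, and dexfenfluramine replicate 3 stood above the other 4 valves of its group. KLF3 was called for pergolide, at -0.55 ± 0.18, with -0.30 ± 0.18 for dexfenfluramine and 0.22 ± 0.18 for serotonin. Replicate 3 raised the dexfenfluramine mean to 24.4 CPM, above the other 4 valves. In the fit without it the log2 fold change of KLF3 moved by less than the larger SD of the 2 groups, which includes that valve. Leaving out 1 valve gave 0.092 (non-treated replicate 4) to 0.30 (non-treated replicate 5) for serotonin.

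The BTB genes ZBTB18 and ZBTB47 were lower with both drugs. ZBTB18 (ENSOCUG00000007968), a repressor also called RP58 that takes part in nerve and muscle cell differentiation, had 30.3, 32, 24.6, 29.4 and 25.5 CPM in non-treated valves and 24.5, 25.6, 19.9, 26.8 and 24.2 CPM after serotonin. It had 22, 18.5, 22.1, 17.9 and 16.2 CPM after pergolide and 21.3, 18.4, 16.6, 23.5 and 15.9 CPM after dexfenfluramine. Every drug valve lay below every non-treated valve, and the serotonin valves lay between and overlapped with both. Its log2 fold changes, -0.55 ± 0.13 for pergolide and -0.56 ± 0.13 for dexfenfluramine, had the lowest mean of both drugs among the 37 genes.

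ZBTB47 (ENSOCUG00000020899) had 55.9, 29.3, 29, 40.0 and 35.2 CPM in non-treated valves, 38.7, 43, 40.9, 26 and 27.2 CPM after serotonin, 20.3, 24.6, 25.7, 28.8 and 27.4 CPM after pergolide and 32.5, 29.6, 23.2, 27.2 and 26.8 CPM after dexfenfluramine. The pergolide valves lay just below the lowest non-treated valve, and non-treated replicate 1 stood high. ZBTB47 was called for pergolide, at -0.56 ± 0.17, with -0.43 ± 0.17 for dexfenfluramine. Both values rest in part on non-treated replicate 1, since the non-treated mean was 37.9 CPM and the median 35.2 CPM.

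The SCAN genes ZSCAN29 and ZSCAN12 had lower means with the drugs. ZSCAN29 (ENSOCUG00000011265) had 28.9, 25.5, 20.2, 25 and 20.0 CPM in non-treated valves, 19.6, 29.8, 27.5, 22.3 and 21.1 CPM after serotonin, 17.6, 22.2, 23.2, 17.9 and 18.5 CPM after pergolide and 15.5, 17.1, 18.5, 20.9 and 15.9 CPM after dexfenfluramine. Its groups overlapped in each comparison, and it was called for dexfenfluramine alone, at -0.43 ± 0.14. ZSCAN12 (ENSOCUG00000029211), with 1 to 11 reads per valve, was not tested. It had 2.16, 2.98, 1.58, 1.18 and 2.07 CPM in non-treated valves, 0.233, 1.58, 1.46, 2.15 and 1.4 CPM after serotonin, 0.958, 0.513, 1.05, 0.352 and 0.356 CPM after pergolide and 1.72, 0.345, 1.08, 1.12 and 1.12 CPM after dexfenfluramine, and no fold change is given at this depth.

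ZFPM2 and ZFP91 are grouped as ZFP genes by their names, not by shared domains. ZFPM2 (ENSOCUG00000005930), the GATA4 cofactor FOG2 whose loss in mice causes tricuspid atresia, had 76.8, 67.5, 66.2, 73.5 and 73.4 CPM in non-treated valves and 65.9, 85.1, 70.4, 70.5 and 79.2 CPM after serotonin. It had 55.9, 57.1, 63.8, 63.8 and 64 CPM after pergolide and 60.9, 62, 70.6, 58.9 and 62.5 CPM after dexfenfluramine. The pergolide valves lay below all non-treated valves, and 1 dexfenfluramine valve reached into their range. Pergolide, for which ZFPM2 was called, gave -0.23 ± 0.08 on the log2 scale, dexfenfluramine -0.18 ± 0.08 and serotonin 0.055 ± 0.081.

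ZFP91 (ENSOCUG00000005385), the ubiquitin ligase, had 278, 269.6, 254, 296 and 259 CPM in non-treated valves and 248, 367, 240.5, 256 and 281 CPM after serotonin. After pergolide its valves lay close together at 216, 216, 216, 204 and 213 CPM, and after dexfenfluramine they stood at 232, 196, 182, 209.9 and 225 CPM. All drug valves lay below all non-treated valves, and serotonin replicate 2 stood above the rest. The log2 fold changes were -0.35 ± 0.10 and -0.38 ± 0.10.

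Among the ZNF genes lower with both drugs, ZNF445, ZNF280B, ZNF106 and ZNF483 had the lowest mean log2 fold change of both drugs. ZNF445 (ENSOCUG00000011175), known for the maintenance of imprinted methylation, had 63.5, 77.5, 69.2, 60.6 and 62.1 CPM in non-treated valves and 58, 61.1, 75.4, 63 and 75.6 CPM after serotonin. It had 49.4, 48.2, 45.9, 48.5 and 48 CPM after pergolide and 51.6, 43.8, 49.9, 50.5 and 46.6 CPM after dexfenfluramine. No drug valve reached the lowest non-treated or serotonin valve. ZNF445 differed from non-treated valves by -0.47 ± 0.087 with pergolide, -0.46 ± 0.087 with dexfenfluramine and -0.00098 ± 0.087 with serotonin on the log2 scale.

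ZNF280B (ENSOCUG00000006249) had 22, 24.1, 19.7, 22.7 and 18.6 CPM in non-treated valves, 17.9, 18, 14.3, 19.8 and 13.8 CPM after serotonin, 16.5, 14, 15.6, 13.9 and 14.1 CPM after pergolide and 19.4, 14, 9, 15.5 and 16 CPM after dexfenfluramine. Pergolide valves did not overlap with non-treated valves, and 1 dexfenfluramine valve did. Its means stood below the non-treated mean with every treatment, by -0.34 ± 0.16 for serotonin, -0.53 ± 0.15 for pergolide and -0.53 ± 0.15 for dexfenfluramine on the log2 scale.

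ZNF106 (ENSOCUG00000016382), an RNA-binding protein with a role in muscle and motor nerve, had 825, 669.8, 560.4, 953 and 715 CPM in non-treated valves and 518, 806, 538, 598 and 526 CPM after serotonin. It had 620.1, 776, 647, 500.0 and 429 CPM after pergolide and 626, 459, 233, 498 and 589.7 CPM after dexfenfluramine. The groups overlapped, and the log2 fold change was -0.63 ± 0.22 for dexfenfluramine, where it was called, and -0.32 ± 0.21 for pergolide. The valve with the lowest level, dexfenfluramine replicate 3, also had the lowest sum of cardiomyocyte markers at 12168 CPM. The valve with the highest level, non-treated replicate 4, had the highest sum at 147874 CPM, and serotonin replicate 2, the highest of its group, had 101597 CPM. The part of muscle RNA in the level of ZNF106 was not tested.

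ZNF483 (ENSOCUG00000004283) had 8.3, 4.06, 10.4, 4.12 and 6.9 CPM in non-treated valves, 5.82, 4.75, 7.6, 4.29 and 5.9 CPM after serotonin, 2.87, 3.59, 6.74, 4.4 and 3.91 CPM after pergolide and 6.88, 4.48, 6.48, 5.96 and 4.17 CPM after dexfenfluramine. It was called for neither drug, and its log2 fold change of -0.68 ± 0.27 for pergolide was the lowest of the 37 genes.

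ZNF532 (ENSOCUG00000014396) was among the genes with the most reads and the least spread. It had 277, 287, 299, 272 and 273 CPM in non-treated valves and 266, 236, 278, 262 and 267 CPM after serotonin. It had 219, 211, 225, 222 and 226 CPM after pergolide and 238, 253, 261, 232 and 249 CPM after dexfenfluramine. Both drug groups lay below the non-treated group, and the pergolide valves lay below all dexfenfluramine valves as well. The log2 fold changes were -0.35 ± 0.063 for pergolide and -0.19 ± 0.063 for dexfenfluramine.

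Several of the other lower genes are known as regulators of promoters or chromatin. ZNF143, an activator found at many promoters and at the anchors of chromatin loops, had a mean of 42.2 ± 4.47 CPM in non-treated valves, 37.4 ± 0.691 CPM after serotonin, 31.6 ± 3.75 CPM after pergolide and 30.4 ± 2.67 CPM after dexfenfluramine. Its valves in all treated groups lay below all non-treated valves. ZNF76 is the close relative of ZNF143 and had the opposite sign with dexfenfluramine. It had 7.66 ± 1.98 CPM in non-treated valves, 7.56 ± 0.852 CPM after serotonin, 7.57 ± 2.09 CPM after pergolide and 11.3 ± 1.04 CPM after dexfenfluramine, where it was called at 0.57 ± 0.18. ZNF652, a repressor that binds the co-repressor CBFA2T3, formed levels without overlap in the order of serotonin, non-treated and drugs. Its valves lay from 83.9 to 91.6 CPM after serotonin, 71.3 to 81.8 CPM in non-treated valves, 46 to 62.1 CPM after pergolide and 55.4 to 66.3 CPM after dexfenfluramine. ZNF384, known to bind the promoters of type I collagen and of matrix metalloproteinases, had 34.9 ± 6.19 CPM in non-treated valves, 37.8 ± 4.58 CPM after serotonin, 27.4 ± 1.49 CPM after pergolide and 27.7 ± 1.53 CPM after dexfenfluramine.

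ZNF326, a protein that couples transcription with splicing, had 142 ± 13.3 CPM in non-treated valves, 155 ± 15.3 CPM after serotonin, 107 ± 6.94 CPM after pergolide and 108 ± 6.26 CPM after dexfenfluramine. ZNF131, a BTB zinc finger protein, had 41.5 ± 4.29, 47.3 ± 3.41, 30.8 ± 2.68 and 33.4 ± 3.33 CPM in these groups. The drug valves of both genes lay below all non-treated valves, for ZNF131 with dexfenfluramine by less than the rounding of the values (36.4 CPM at the border). With no overlap to non-treated valves there were 4 higher and 12 lower genes for pergolide, where 16.3% of all genes had none in either direction. For dexfenfluramine there were 4 higher and 8 lower, where 17% of all genes had none. For serotonin ZNF652 was higher and ZNF143 lower without overlap, where 2.66% of all genes had none.

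ZNF462, ZNF292, ZNF436 and ZNF609 were called lower with pergolide alone. ZNF462, a gene whose loss in people alters the development of the face, had a mean of 147 ± 26.3 CPM in non-treated valves, 182 ± 4.52 CPM after serotonin, 119.8 ± 11.7 CPM after pergolide and 152 ± 16 CPM after dexfenfluramine. Its log2 fold change was 0.31 ± 0.11 for serotonin, and without non-treated replicate 3 it was called there at 0.41 ± 0.096. ZNF292 had 186 ± 18.9 CPM in non-treated valves, 201 ± 12 CPM after serotonin, 156 ± 5.55 CPM after pergolide and 168 ± 6.05 CPM after dexfenfluramine. ZNF609, a regulator that binds cohesin loaders and is also known for its circular RNA, had 51.8 ± 6.41, 51.6 ± 5.48, 42.2 ± 5.14 and 49.9 ± 4.47 CPM in the same order. ZNF436 had 16.9 ± 2.27, 18.5 ± 2.12, 13.3 ± 1.33 and 14.7 ± 1.14 CPM. With dexfenfluramine the log2 fold changes of ZNF462, ZNF292, ZNF609 and ZNF436 were 0.052, -0.15, -0.058 and -0.20.

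ZEB1 (ENSOCUG00000006516), the repressor of E-cadherin that promotes the mesenchymal state, was called for no treatment. It had 79.7, 65, 53.5, 77.1 and 58.4 CPM in non-treated valves and 55.9, 69, 57, 72.4 and 74.2 CPM after serotonin. It had 80.8, 73.1, 69.1, 55.8 and 59.1 CPM after pergolide and 54.9, 52.4, 50.4, 52.9 and 60.6 CPM after dexfenfluramine. The dexfenfluramine valves lay close together, and those at 50.4, 52.4 and 52.9 CPM lay below every valve of the other groups. The log2 fold change was -0.29 ± 0.12 for dexfenfluramine, 0.023 ± 0.12 for pergolide and -0.018 ± 0.12 for serotonin. The remaining genes called for neither drug were ZNF35, ZNF345, ZNF398 and ZNF697. Their means in non-treated valves were 14.9, 23.4, 17.6 and 10.9 CPM, with log2 fold changes of -0.27, -0.27, -0.46 and -0.37 for pergolide and -0.37, -0.16, -0.19 and -0.51 for dexfenfluramine.

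**Figure D4:**
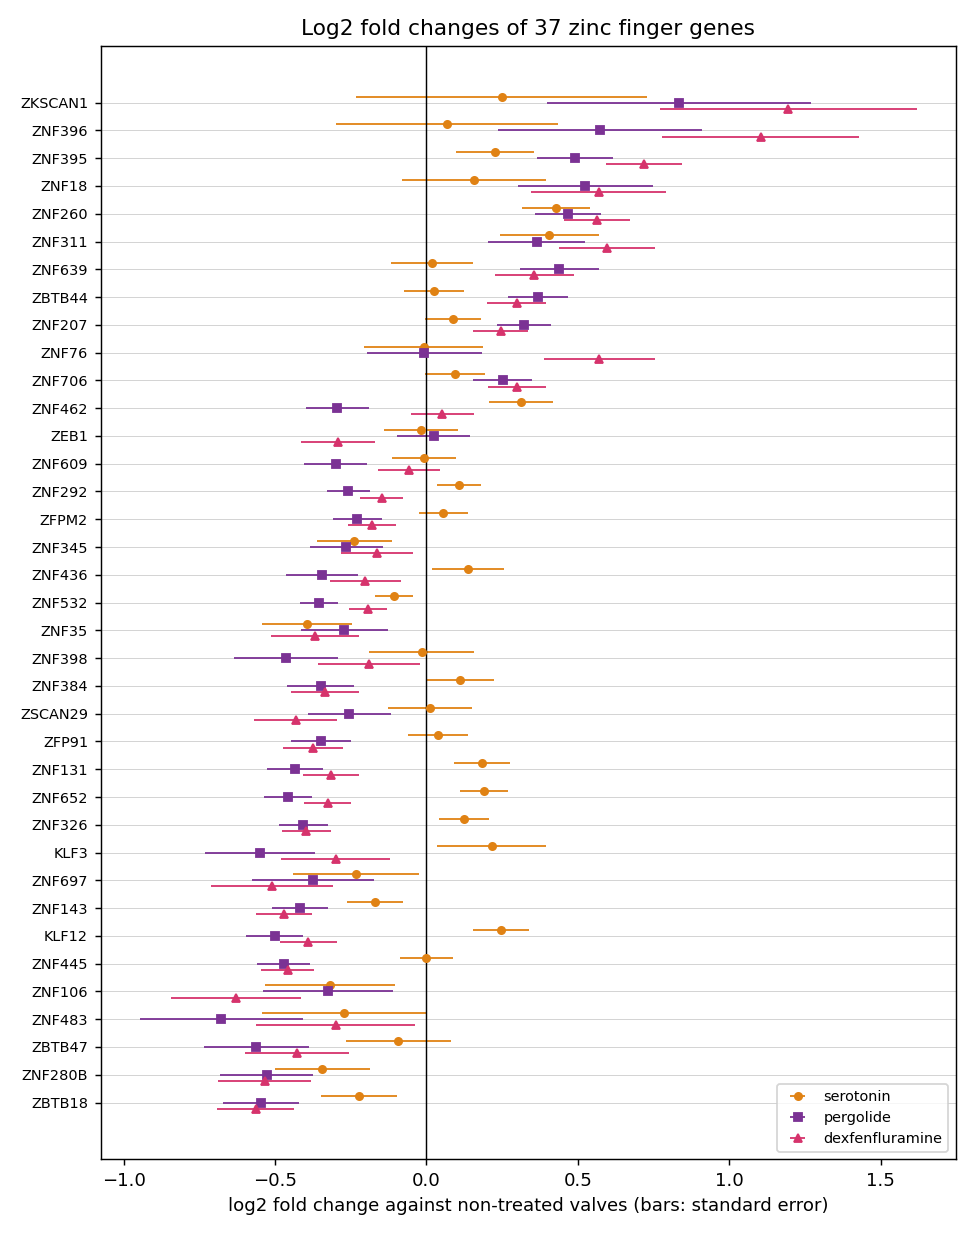
Log2 fold change (points) with its standard error (bars) of 37 zinc finger genes in serotonin, pergolide and dexfenfluramine valves against the same non-treated valves, ordered by the mean of both drugs. With serotonin 22 genes are above 0, where 52.5% of all genes tested are, and the values of the lower genes lie on both sides of 0.

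With serotonin, log2 fold changes of the genes lower with both drugs lay on both sides of 0, as values set against the same non-treated valves. Positive values included KLF12 (0.25), KLF3 (0.22), ZNF652 (0.19), ZNF131 (0.18) and ZNF326 (0.12). Negative values included ZNF35 (-0.39), ZNF280B (-0.34), ZNF106 (-0.32) and ZBTB18 (-0.22). Among the genes higher with both drugs, the values ran from 0.018 (ZNF639) to 0.43 (ZNF260).

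Within the groups, the correlations between genes of a class from valve to valve went both ways. After the group means were subtracted, the median correlation over 20 valves was 0.025 among the 10 higher genes (45 pairs) and 0.017 among the 24 lower genes (276 pairs), beside -0.00057 among pairs drawn from all genes tested. Of these pairs, 57.8% were positive among the higher genes and 50.7% among the lower genes. Between higher and lower genes the median was -0.047 (240 pairs, 43.75% positive). A median near 0 does not show that single pairs were weakly correlated. These correlations share libraries and are given as a description.

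The comparison of dexfenfluramine with pergolide was not itself used to list the genes, although its valves were. For a gene that passes the threshold with 1 drug alone, the listing can favour a difference between the drugs, so these values are a description too. In edgeR's quasi-likelihood test none of the 37 genes was called, as with 0% of all 8683 genes, and the lowest adjusted p of the 37 was 0.58. At an unadjusted p under 0.05 there were 5 of the 37 genes and 613 of all genes, and DESeq2 and limma-voom called 0 of the 37. The 5 genes were ZNF462 (dexfenfluramine minus pergolide 0.35 ± 0.10 on the log2 scale), ZNF76 (0.58 ± 0.18), ZEB1 (-0.32 ± 0.12), ZNF532 (0.16 ± 0.063) and ZNF609 (0.24 ± 0.10). Of these, ZNF462, ZNF76 and ZNF609 were called for 1 drug alone, ZEB1 for neither and ZNF532 for both. ZNF532 was the only one of the 37 without overlap between the drugs, where 1.43% of all genes had none. For ZBTB18 the difference was -0.017 ± 0.13, for ZNF445 0.013 ± 0.087 and for KLF12 0.11 ± 0.094. Standard errors ran from 0.063 (ZNF532) to 0.38 (ZKSCAN1), and a difference that missed the threshold does not show that the drugs act alike. A gene called for 1 drug alone is therefore not shown to differ between the drugs.

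Zinc finger repressors act through co-repressor complexes. Of 27 co-repressor genes looked for, 7 had a symbol, because symbols come from the same list of differing genes, so these values are a description as well. CHD4, the helicase of the NuRD complex, and ATRX, a chromatin remodeller, were called lower with both drugs, CHD4 at -0.46 ± 0.089 for pergolide and -0.50 ± 0.089 for dexfenfluramine. ATRX had -0.25 ± 0.082 and -0.27 ± 0.082. BCORL1 was called lower with pergolide alone (-0.43 ± 0.13), and NCOR1, the nuclear receptor co-repressor, with dexfenfluramine alone (-0.20 ± 0.066). BCOR was called higher with dexfenfluramine (0.39 ± 0.14), CHD3 and RBBP4 were not called, and none of the 7 was called for serotonin. These calls are on the TMM scale. Of all genes, 12.7% were called lower with pergolide, and 15.4% lower and 13.5% higher with dexfenfluramine. With serotonin 1.04% were called higher and 0.15% lower.

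In the gene order of a RefSeq rabbit assembly, 4 pairs of the genes lay within 25 protein-coding genes of each other. The symbols ZNF345, ZNF396 and ZNF706 were not found there and could not be placed. ZNF311 and ZSCAN12 had 5 coding genes between them, ZNF35 and ZNF445 had 6, ZNF106 and ZSCAN29 had 15, and ZNF462 and ZNF483 had 23. ZNF35 and ZNF445 were both lower with the drugs, as were ZNF106 and ZSCAN29. ZNF311 was higher with the drugs while ZSCAN12 had lower means. ZNF462 and ZNF483 were both lower with pergolide (-0.29 and -0.68) and had opposite signs with dexfenfluramine (0.052 and -0.30).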

How the data were processed

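Stranded libraries were prepared by the authors after removal of ribosomal RNA, and reads were aligned to the rabbit genome oryCun2 with TopHat2 (version 2.1.1 in the submitters' processing notes). HTSeq counted them on Ensembl genes. The counts were deposited as whole numbers, not normalized. How strand and reads with several alignments were treated in counting is not given in the sources used here. Zinc finger genes share similar finger sequences, so that counts of close copies are uncertain.

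Counts of all 20 valves, grouped by their labels, were normalized by TMM, filtered by filterByExpr and tested by edgeR 4.0.16 (R 4.3.3) in 1 fit of 4 groups, with Benjamini-Hochberg adjustment at 0.05. A p-value sets a difference of group means against the spread between valves within groups, estimated over all 20 valves. Symbols come from the study's list of differing genes, since the count table pairs none. That list was used for names and identifiers, and ZNF260 was given in full because it is listed there for all treatments. The fold changes and p-values of the list were not used. The genes and lists were chosen with earlier results of these data known. Levels in every valve were given for ZNF260, for all genes of the KLF, ZEB, ZBTB, ZKSCAN, ZSCAN and ZFP families, for the 4 ZNF genes with the highest and the 4 with the lowest mean log2 fold change of both drugs, and for the 3 with the highest CPM. The other genes were given by group means, ranges or fold changes. Alternatives were DESeq2 1.42.0, limma-voom (limma 3.58.1), svaseq surrogate variables (sva 3.50.0), other scalings and filters, fits of only the 2 groups compared, the replicate number as a block, and each valve left out in turn. Python 3.11.15 and matplotlib 3.10.9 drew the plots. Counting error limits genes with few reads.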

Additional observations from a re-analysis of the deposited data

Results flagged for a closer look

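In 6 of 152 groups of 5 valves (38 genes in 4 groups), 1 valve stood apart from the other 4 by Dixon's criterion (gap over range above 0.71), which chance gives in about 1 of 20 groups. KLF3 was 37.3 CPM in dexfenfluramine replicate 3, where the others had 19.1 to 23.2 CPM. ZNF106 was 806 CPM in serotonin replicate 2, where the others had 518 to 598 CPM, and this valve also had the highest sum of cardiomyocyte markers of its group. ZBTB44 was 36.2 CPM in serotonin replicate 3 (others 42.6 to 44.7 CPM), ZNF143 was 36.2 CPM in serotonin replicate 5 (others 37.5 to 38.0 CPM), and ZFP91 was 203.8 CPM in pergolide replicate 4 (others 213 to 216 CPM). ZNF384 was 24.1 CPM in non-treated replicate 4 (others 35.5 to 39.6 CPM).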

How the results depend on the processing

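The number of genes called was 10 for pergolide and 9 for dexfenfluramine with svaseq surrogate variables, instead of 23 each, and 10 for pergolide with total counts without TMM. The other planned settings gave 18 to 24 for pergolide (14.2% to 29.3% of all genes), 17 to 22 for dexfenfluramine (16.3% to 34.1%) and 0 for serotonin (0% to 2.59%) and for dexfenfluramine against pergolide (0%). Leaving out 1 valve gave 16 to 23 for pergolide (20.2% to 26.0% of all genes), 16 to 22 for dexfenfluramine (23.1% to 32.0%) and 0 to 2 for serotonin (0% to 2.93%), where 2 came without non-treated replicate 3. With the replicate number as a block the counts were 0, 21 and 22 for serotonin, pergolide and dexfenfluramine and 0 for dexfenfluramine against pergolide, where 0.012%, 22.9%, 27.2% and 0% of all genes were called. The labels share replicate numbers and do not state a pairing of the valves. The correlation of same-numbered valves exceeded 0.1 in at most 2 of 5 pairs between any 2 groups. It reached 0.49 between non-treated and dexfenfluramine valves, and so few pairs cannot decide whether the valves are paired. With total counts without TMM the log2 fold changes of called genes reversed for ZFP91 (0.11), ZFPM2 (0.24), ZNF143 (0.029), ZNF292 (0.17), ZNF326 (0.0085), ZNF384 (0.077), ZNF436 (0.12), ZNF462 (0.10), ZNF532 (0.077) and ZNF609 (0.12) with pergolide. With dexfenfluramine they reversed for KLF12 (0.26), ZBTB18 (0.12), ZFP91 (0.30), ZNF106 (0.043), ZNF131 (0.34), ZNF143 (0.21), ZNF280B (0.11), ZNF326 (0.26), ZNF384 (0.33), ZNF445 (0.20), ZNF532 (0.48), ZNF652 (0.34) and ZSCAN29 (0.27). The median gene moved by 0.44 with pergolide and 0.67 with dexfenfluramine, and the 37 genes by 0.37 to 0.51 and 0.62 to 0.72. ZKSCAN1 reversed with dexfenfluramine under svaseq (-0.22), and the cause was not tested. In that fit 18 other fold changes also moved and 129 stayed about the same. Among those that moved was ZBTB47 with serotonin, from -0.094 to 0.31. Group means did not move beyond 1 SD with DESeq2's size factors. Levels per kilobase and the wider zinc finger family were not run, since no coding lengths and no symbols beyond the study's list were used here. Depth limits ZKSCAN1, ZNF396 and ZSCAN12 most.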
